A study of Mus musculus with 8 samples.

Results

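Upper-layer cortical excitatory neuron nuclei were picked out of single-nucleus RNA sequencing of mouse forebrain by their own counts of unique molecular identifiers (UMIs, 1 per captured RNA molecule). Barcodes below 1000 UMIs or 300 genes, or above 5% mitochondrial UMIs, were dropped. A remaining barcode was a member with at least 1 UMI of Slc17a7 (vesicular glutamate transporter of excitatory neurons), at least 1 of Otof, at least 2 of Cux2, at most 2 of Foxp2, at most 1 each of Prox1 and Tcf7l2, at most 1 of Gad1 and Gad2 together, and none of Mog, Aqp4 or Cx3cr1. The rule found 467 members, which is 1.04% of the 44762 kept nuclei and 3.45% of the 13545 kept nuclei that met its limits on Slc17a7, Gad1, Gad2 and the glial genes. In all, 53390 barcodes were deposited. The values of these genes chose the members, so they are given only as a description.

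The samples are male mice of Swiss Webster, an outbred stock, aged 10 weeks. A cube of 2 mm was cut from forebrain around the lesion and frozen. Each of 4 groups has 2 libraries: control surgery, BCAS surgery, TBI (traumatic brain injury) surgery, and BCAS and TBI together (BCAS+TBI). BCAS stands in this field for bilateral carotid artery stenosis, and the study's title ties it to cerebral hypoperfusion. The labels give no time between surgery and collection, no severity of injury and no account of the control surgery. Nuclei were captured with a 10x Chromium 3′ kit. The study asked how hypoperfusion bears on brain injury, and the comparisons here ask what changed in the upper-layer nuclei with TBI, with BCAS and with both.

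Excitatory neurons of cortical layers 2 and 3 send axons to other cortical areas, also through the corpus callosum, and lie nearest the surface of the brain. The transcription factor Cux2 marks them from development onward. Neurons of layer 4 carry the nuclear receptor Rorb and receive thalamic input. Neurons of layer 6 that project to thalamus carry Foxp2 and Tle4.

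Depth split the libraries. Libraries are named by group and replicate number. Control 1, BCAS 1, TBI 1 and BCAS+TBI 2 held 28118725 to 33363564 UMIs in all deposited barcodes, and the other 4 held 42651388 to 56135192. These are called library set 1 and library set 2, each with 1 library of every group. Members numbered 19 to 35 per library in set 1 and 78 to 106 in set 2. Their median UMIs were 7120 to 8642 in set 1 and 9320 to 12447.5 in set 2, and their summed UMIs 152664 to 392016 and 948422 to 1066411. Mitochondrial genes took 1.98% of member UMIs in BCAS+TBI 2 and 0.267% to 0.847% in the other 7 libraries. No member barcode occurred in more than 1 library. The labels call the 2 libraries of a group biological replicates but do not say how many animals went into each.

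The label held up on layer markers that the rule did not use. Values are counts per 1e+06 UMIs of the summed nuclei (CPM), as mean ± SD over the 8 libraries. Rasgrf2, a Ras exchange factor of upper-layer neurons, stood at 376 ± 65.0 in the members, at 163 in nuclei with Rorb and at 22.9 in layer 6 nuclei. The calcium-binding protein gene Calb1 stood at 109 ± 19.2, against 47.6 and 8.93. Lamp5 stood at 98.4 ± 34.7, against 52.5 and 28.6. Each of these 3 genes was higher in the members than in both other kinds in 8 of 8 libraries. Nuclei with Rorb are 1939 kept nuclei with at least 3 Rorb UMIs and none of Otof, and layer 6 nuclei are 1044 kept nuclei with at least 3 Foxp2 UMIs, at least 1 of Tle4 and none of Otof, both within the rule's limits on Slc17a7, Prox1, Tcf7l2, Gad1, Gad2 and the glial genes. All 3 kinds of nuclei were chosen by their counts, so these differences carry no test.

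Other upper-layer markers did not set the members apart from the nuclei with Rorb. Unc5d, a netrin receptor, was 1240 ± 134 in the members and 1467 in nuclei with Rorb, and was higher in the members in 1 of 8 libraries. It was 132 in layer 6 nuclei. Slc30a3, which loads zinc into synaptic vesicles, was 112 ± 35.4, 94.4 and 7.80, in the same order. Cux1 was 310 ± 46.4, 367 and 65.6, and was higher in nuclei with Rorb in 7 of 8 libraries. Unc5d, Slc30a3 and Cux1 were each above layer 6 nuclei in 8 of 8 libraries.

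Detection was set against oligodendrocyte nuclei only. Slc30a3 had a UMI in 57.0% of members (95% Wilson interval 52.4% to 61.4%, counting error only) and in 3.96% of 1618 oligodendrocyte nuclei (at least 2 Mog UMIs, no Slc17a7), which should lack it. Median UMIs were 7120 to 12447.5 in the members and 2096 to 3178 in the oligodendrocyte nuclei. Nuclei with at least 3000 UMIs were then thinned to 3000, which left out 2 members and many of the oligodendrocyte nuclei. Among those kept, the shares were 23.9% and 2.54%. For Rasgrf2 the thinned shares were 66.2% and 14.2%. Enpp2 had a UMI in 54.8% of thinned members and in 79.5% of thinned oligodendrocyte nuclei, so it does not mark the members in these tissues.

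**Figure D1:**
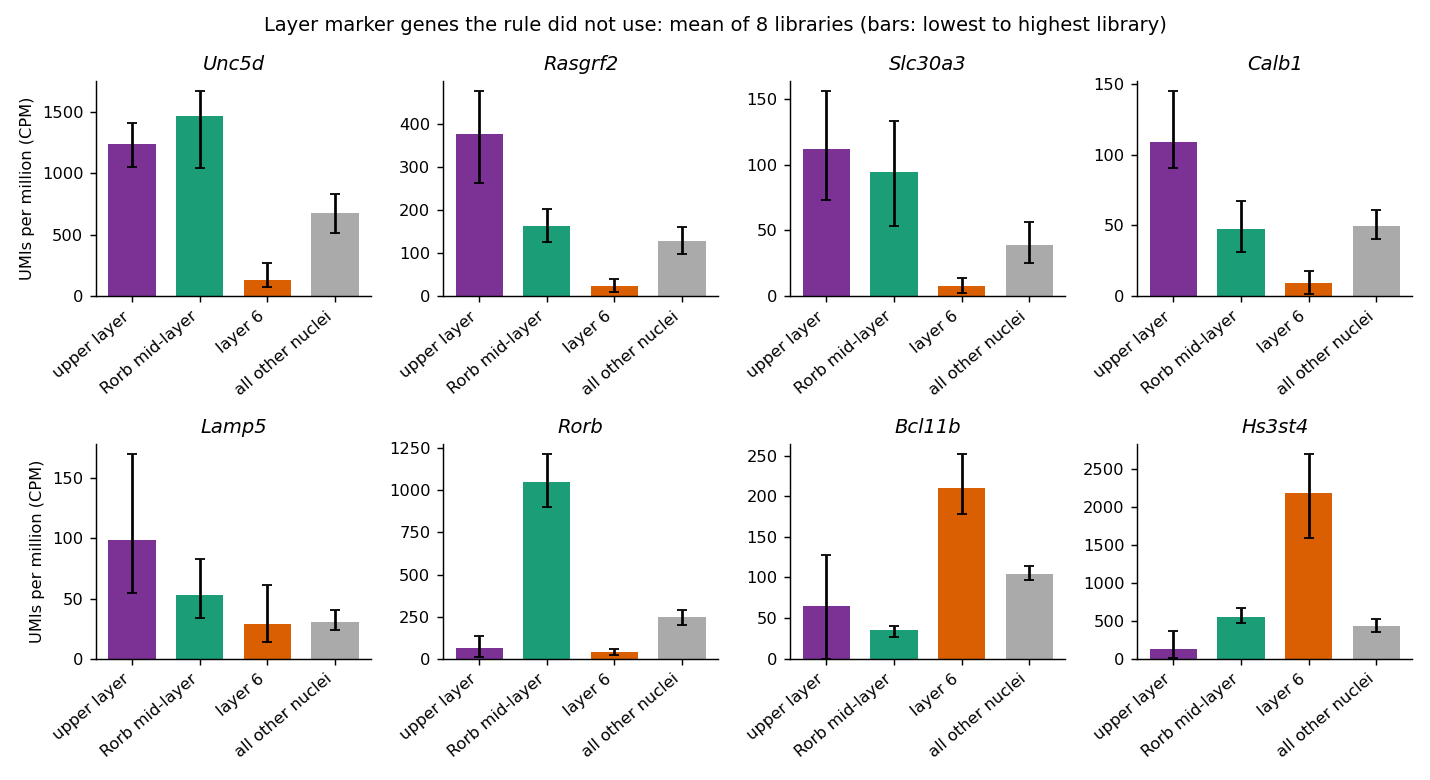
Mean CPM of 8 layer marker genes over the 8 libraries (bars) in upper-layer nuclei, nuclei with Rorb, layer 6 nuclei and all other kept nuclei, with thin lines from the lowest to the highest library. Rasgrf2, Calb1 and Lamp5 are highest in the upper-layer nuclei, Unc5d and Rorb in the nuclei with Rorb, and Hs3st4 in the layer 6 nuclei.

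Markers of other layers were present at varied levels. Rorb was 63.0 ± 40.6 CPM against 1048 in the nuclei chosen for it and 37.7 in layer 6 nuclei, which the members exceeded in 6 of 8 libraries. A Rorb UMI was found in 19.9% of members and 25.3% of oligodendrocyte nuclei, and after thinning in 9.46% and 37.4%. Of the layer 6 list, the members held 1 UMI each of Syt6 and Nxph3, 95 of Sulf1, 208 of Tle4 and 584 of Hs3st4 among 5032771, and each of these 5 genes was below layer 6 nuclei in 8 of 8 libraries. Of the layer 5 list they held 4 UMIs of Fezf2, 36 of Deptor, 61 of Parm1, 134 of Etv1, 279 of Tshz2 and 301 of Bcl11b. Bcl11b, a transcription factor of layer 5 and 6 neurons, was 65.4 ± 41.9 CPM, against 35.4 in nuclei with Rorb (higher in the members in 6 of 8 libraries) and 210 in layer 6 nuclei. Wfs1, a marker of hippocampal CA1 that cortex also expresses, was 39.2 ± 16.4 against 14.6 in all other nuclei and higher in 8 of 8 libraries, while the hippocampal Fibcd1 had 12 UMIs and C1ql2 had 2.

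Markers of glia, vessels and inhibitory neurons were mostly low, apart from single libraries. The rule kept Mog, Aqp4 and Cx3cr1 at 0. The summed CPM of 5 further oligodendrocyte markers ran from 76.3 to 376 over the libraries, against 7570 to 11196 in the oligodendrocyte nuclei. That of 5 endothelial markers was 6.63 to 19.7 in 6 libraries, 82.2 in control 2 and 63.8 in TBI 1. That of 5 mural cell and fibroblast markers was 47.4 in control 2 and 61.2 in TBI 1, against 32.2 in control 1 and 3.32 to 13.1 in the other 5. Lists of genes marking thalamic neurons (558 to 1158 CPM without the gene the rule used) and striatal projection neurons (408 to 917) were not low, and in the oligodendrocyte nuclei these sums were 924 to 1676 and 303 to 621. TBI 1 had the highest sums of the mid-layer (546), layer 5 (352) and layer 6 (454) lists, whose lowest libraries had 62.9, 72.1 and 53.1.

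The genes with the highest ratios to the other kept excitatory nuclei are given as a description. Gucy1a1, a subunit of the nitric oxide receptor guanylate cyclase, was 102 ± 20.9 CPM with a mean log2 ratio of 1.75 (CPM plus 1). Rgs6, which shortens G protein signals, was 1645 ± 282 with a log2 ratio of 1.39. Prkg2, a cyclic GMP-dependent kinase, had a log2 ratio of 1.36. Gsg1l (an AMPA receptor auxiliary subunit, 1.54), Glra3 (a glycine receptor subunit, 1.54), Igsf11 (an adhesion protein, 1.54), Col19a1 (1.38) and the heparan sulphate proteoglycan gene Gpc6 (1.35) were also among the 12 highest, as were Rasgrf2 (1.58), Igfn1 (1.49), Evc2 (1.39) and Prex1 (1.36). Of 3482 genes with at least 50 CPM in either, 358 were higher and 495 lower in 8 of 8 libraries. Among the lowest were the kainate receptor gene Grik3 (-4.22), the guidance genes Sema3e (-4.29) and Sema5a (-3.19), and Adarb2 (-4.06).

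Set against the nuclei with Rorb, the members were richer in Meis2, a homeobox gene (267 ± 42.9 against 45.1 CPM), and the ephrin receptor gene Epha3 (293 ± 65.0 against 58.6). They were poorer in Galntl6 (207 ± 111 against 1373) and Zmat4 (67.3 ± 33.4 against 583). Against layer 6 nuclei the ratio was largest for the nuclear receptor gene Pparg (138 ± 24.6 against 5.59 CPM), followed by Rasgrf2, and the adhesion gene Nectin3 (235 ± 22.4 against 17.8) was among the 12 highest. Hs3st4, a heparan sulphate sulphotransferase gene, was 134 ± 105 in the members and 2185 in layer 6 nuclei.

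The members were not uniform among themselves. In 465 members thinned to 3000 UMIs, the variance of UMIs per nucleus was divided by the mean for 2573 genes with a mean of at least 0.2. Counting alone gives a ratio near 1. The median ratio was 1.08, and the 95th percentile was 1.73. Malat1, a nuclear RNA, had 17.8 and Lsamp, a neuronal adhesion gene, 12.9. Trpm3, a cation channel gene, had 7.84, with a UMI in 63.0% of nuclei. Il1rapl2 (6.60) and Hs3st4 (5.73) were concentrated in few nuclei, with a UMI in 9.89% and 10.5%. Il1rapl2 is a synaptic adhesion gene that the marker lists hold for layer 4, and Hs3st4 is held for layer 6. A split of the members by Rorb could not be made: 421 of the 465 had no Rorb UMI after thinning, 17 had 2 or more, and BCAS 1 had none of those 17.

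Members near the limit on Otof differed in Rorb from nuclei just outside it, while at the limit on Cux2 the libraries overlapped. The 167 members with 2 Cux2 UMIs had 38.8 ± 25.3 CPM of Rorb and 361 ± 73.8 of Rasgrf2. The 173 nuclei with 1 Cux2 UMI that met all other limits had 58.3 ± 68.0 and 276 ± 52.0. The 308 members with 1 Otof UMI had 61.7 ± 47.7 CPM of Rorb, and the 2072 nuclei without Otof that met all other limits had 404 ± 100. In Unc5d those latter groups had 1213 and 1294 CPM.

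The share of members among kept nuclei differed between the library sets. In set 1 control 1 had 0.475%, BCAS 1 had 0.675%, TBI 1 had 0.710% and BCAS+TBI 2 had 0.382%, for a mean of 0.561% ± 0.158 (SD, n = 4). In set 2 control 2 had 1.40%, BCAS 2 had 1.23%, TBI 2 had 1.48% and BCAS+TBI 1 had 1.64%, for a mean of 1.44% ± 0.168 (SD, n = 4). Every library of set 2 lay above every library of set 1. When each nucleus was thinned to 3000 UMIs, leaving out 2 members and all other nuclei below that, 42 of 32738 nuclei met the rule, and the shares were 0.121% ± 0.0417 and 0.136% ± 0.0429, with overlapping libraries.

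With TBI the share was 1.05% ± 0.602 and without it 0.946% ± 0.441, a difference of 0.106 percentage points (exact two-sided permutation test over 70 assignments, p = 0.714, adjusted over both surgeries p = 0.886). Within set 1 the difference was -0.0291, and within set 2 it was 0.241. With BCAS it was 0.982% ± 0.562 and without it 1.01% ± 0.499, a difference of -0.0328 (exact permutation p = 0.886, adjusted p = 0.886). The smallest p this test allows is 0.0286. The spread in it holds the difference between the library sets. With libraries reassigned only within each set, the exact two-sided permutation p over 36 assignments was 0.444 for TBI and 0.778 for BCAS (adjusted p = 0.778 for both), and the smallest p possible was 0.0556, so this test cannot reach 0.05. A smaller share may reflect fewer nuclei of this kind or less RNA per nucleus, which cannot be told apart.

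**Figure D2:**
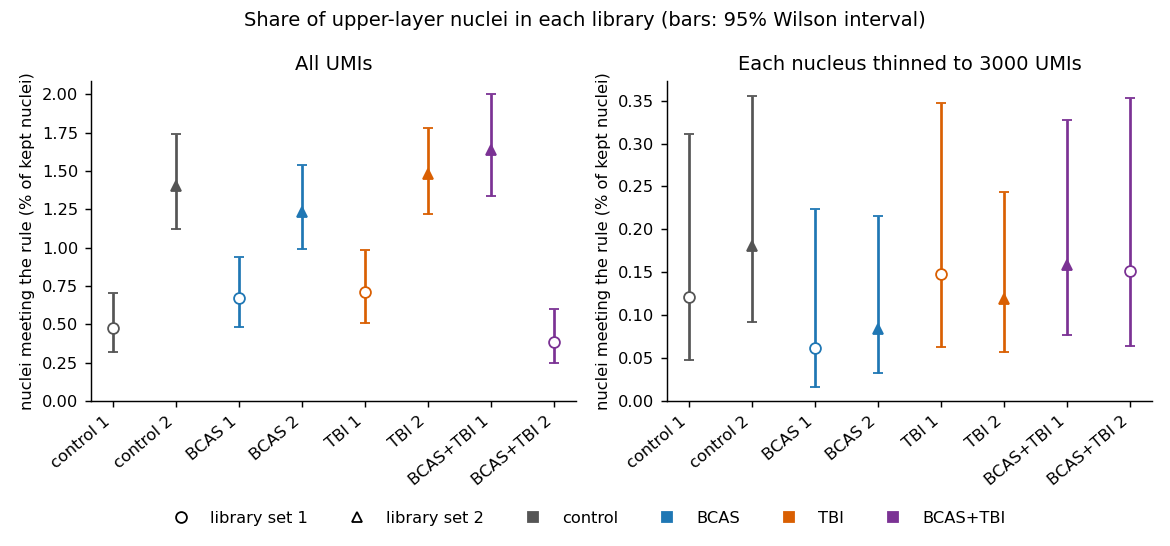
Share of kept nuclei that met the rule in each library (%), with 95% Wilson intervals, from all UMIs (left) and after thinning to 3000 UMIs (right). Circles are library set 1 and triangles library set 2. On the left all triangles (1.23% to 1.64%) lie above all circles (0.382% to 0.710%), and on the right they overlap.

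For expression, UMIs of the members were summed per library and 9201 genes were tested with edgeR's quasi-likelihood test, with a term for the library set. Adjusted p-values are Benjamini-Hochberg over these genes, and the threshold is 0.05. In 3 of the 7 comparisons no more than 1 gene passed, and 11 genes passed in at least 1. The library set itself moved far more: 687 genes (7.47%) passed between the sets, 428 of them lower in set 2 (4.65%). Without that term no gene passed in any comparison, and all 15 calls described here then had an adjusted p of 1.000.

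TBI averaged over BCAS compares the 4 libraries with TBI with the 4 without. Of 9201 genes, 4 passed (0.0435%), 1 higher and 3 lower, and 318 had an unadjusted p under 0.05 (3.46%). Egfem1, Nxph1 and the antisense RNA A830036E02Rik fell, and Lsm4 rose. A830036E02Rik falls outside the rule by which genes are named and was chosen after its values were seen.

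Egfem1 is a gene with EGF-like domains on chromosome 3 (29082023 to 29691209, GRCm38, GENCODE M21, plus strand). It was an abundant transcript of the members, with 4657 UMIs in 426 of 467 nuclei. Its CPM, given for replicate 1 and then 2, was 1031 and 1413 after control surgery, 1138 and 1100 after BCAS, 750 and 583 after TBI and 634 and 976 after both. All 4 libraries with TBI lay below all 4 without. Arms that do not overlap, in either direction, occurred in 1.78% of the tested genes. The log2 fold change was -0.74 (SE 0.14, edgeR adjusted p = 0.0273), with -0.34 within set 1 and -1.03 within set 2. It stayed past the threshold without the richest nucleus of each library (adjusted p = 0.00188) and lost it without control 2 or BCAS+TBI 1.

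In the other kinds of nuclei Egfem1 did not pass the threshold with TBI. In nuclei with Rorb it was 475 and 515 CPM in control, 492 and 603 in BCAS, 427 and 320 in TBI, and 365 and 360 in BCAS+TBI, again without overlap, with a log2 fold change of -0.50 (SE 0.10, adjusted p = 0.113). In layer 6 nuclei the log2 fold change was -0.46 (SE 0.17, adjusted p = 1.000). The difference of the members from nuclei with Rorb was -0.23 (SE 0.14, adjusted p = 1.00) and that from layer 6 nuclei -0.29 (SE 0.16, adjusted p = 1.00). In all other kept nuclei together the libraries with TBI had 501, 368, 358 and 474 CPM, and those without had 607, 707, 556 and 661.

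Lsm4, a subunit of the ring that binds U6 small nuclear RNA (chromosome 8, 70673248 to 70678752, plus strand), was sparse. The members held 1 and 0 UMIs in control, 2 and 1 in BCAS, 5 and 15 in TBI, and 28 and 7 in BCAS+TBI. The arms did not overlap in CPM, with at most 6.63 without TBI and at least 12.8 with it. The log2 fold change was 3.60 (SE 0.65, edgeR adjusted p = 0.0273) and rests on 4 UMIs in the libraries without TBI. Without control 2, BCAS 2, TBI 2 or BCAS+TBI 1, or without the richest nucleus of each library (adjusted p = 0.0582), it did not pass. In nuclei with Rorb it was 1.72 (SE 0.39, adjusted p = 0.208), and in layer 6 nuclei 1.98 (SE 0.55, adjusted p = 0.750). In all other kept nuclei Lsm4 was highest in BCAS+TBI 2 at 32.6 CPM and lowest in BCAS 2 (2.98) and control 2 (3.79).

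Nxph1, which encodes a secreted ligand of neurexins (chromosome 6, 8948431 to 9249032, plus strand), fell with a log2 fold change of -2.10 (SE 0.35, edgeR adjusted p = 0.0175). Its UMIs were 3 and 98 after control surgery, 6 and 65 after BCAS, 12 and 19 after TBI and 12 and 0 after both, and in CPM (0 to 30.6 with TBI, 16.1 to 103 without) the arms overlapped. In control 2 a single nucleus held 63 of its 98 UMIs. Without the richest nucleus of each library the log2 fold change was -1.77 (adjusted p = 0.266), and the call was also lost without control 2, BCAS 2, TBI 2 or BCAS+TBI 1. Inhibitory neurons express Nxph1, and all other kept nuclei had 319 to 606 CPM of it. The summed CPM of 5 inhibitory markers in the members was 59.1 to 105 with TBI and 26.5 to 76.2 without, and its part in the result was not tested.

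A830036E02Rik is annotated as antisense on chromosome 11 (99416956 to 99425497, plus strand). Its CPM was 21.5 and 114 after control surgery, 63.0 and 135 after BCAS, 2.55 and 45.0 after TBI and 50.9 and 45.9 after both, and the arms overlapped. The log2 fold change was -1.39 (SE 0.26, edgeR adjusted p = 0.0273), and the call was lost without control 2 or BCAS+TBI 1. In nuclei with Rorb it was -1.09 (SE 0.24, adjusted p = 0.202). Whether the counting used strand is not given in the sources used here, so its reads cannot be told apart from those of a gene on the opposite strand. In TBI 1 it was low in all other nuclei too, at 0.638 CPM against 20.6 to 50.4 in the other 7 libraries.

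**Figure D3:**
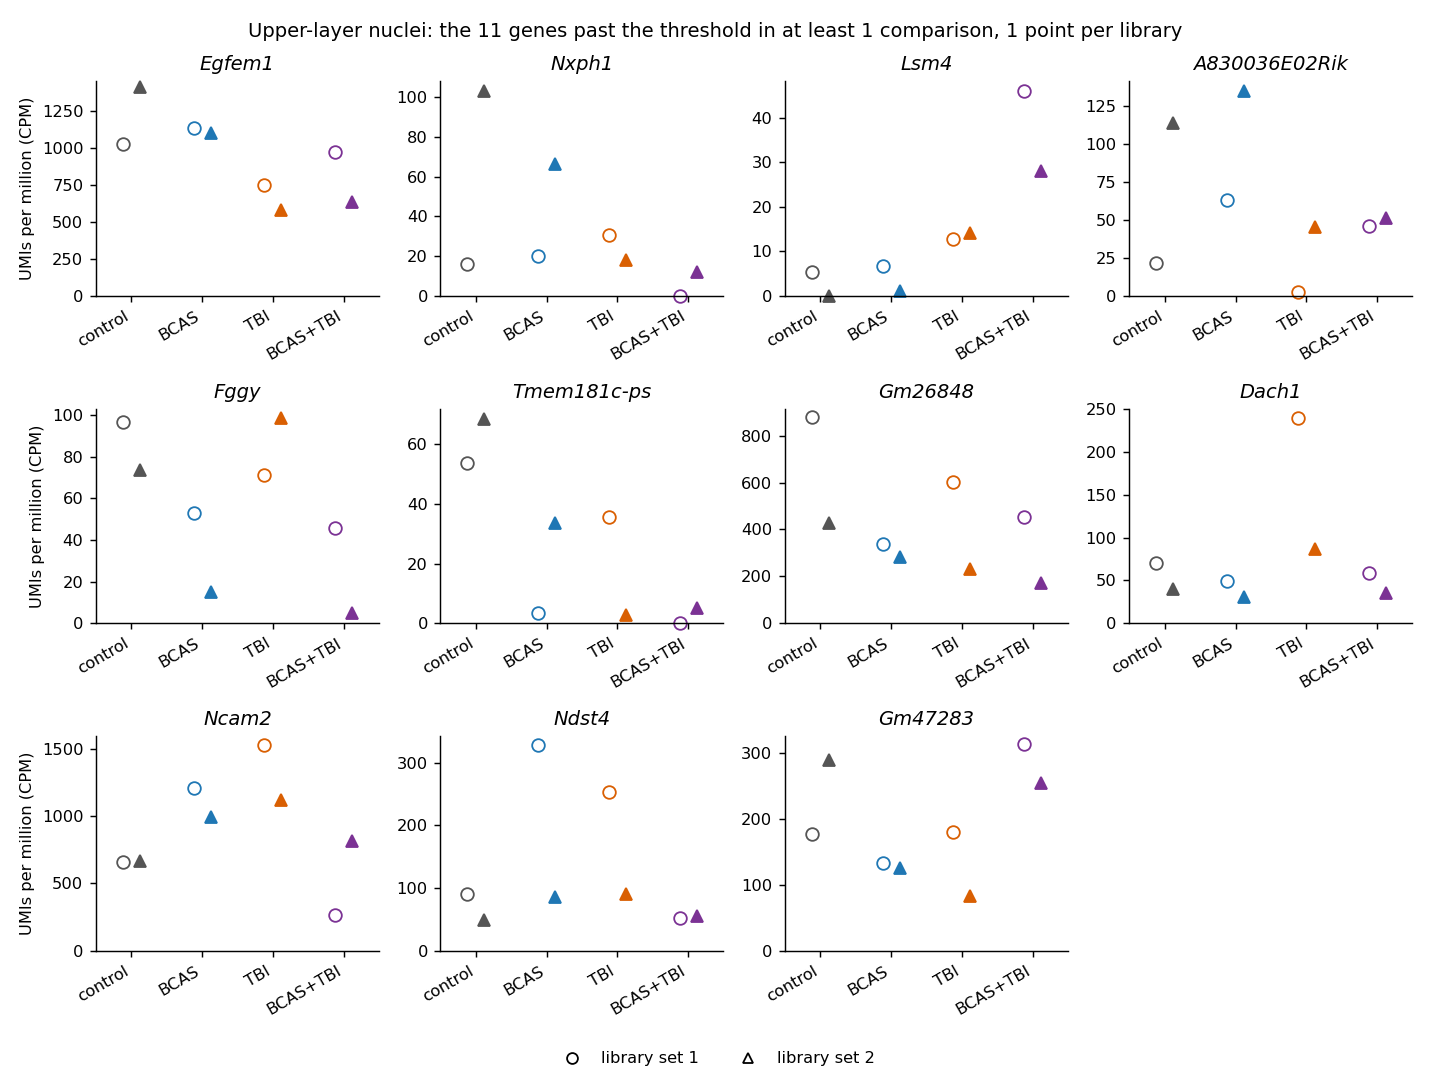
CPM in the upper-layer nuclei of each library (1 point per library, by group) for the 11 genes past the threshold in at least 1 comparison. Circles are library set 1 and triangles set 2. Egfem1 and Lsm4 show no overlap between libraries with and without TBI, and Fggy none between libraries with and without BCAS.

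Immediate early genes, the transcription factors and regulators that neuronal activity switches on within minutes, lay above 0 for 9 of 11 tested genes with TBI, with a median log2 fold change of 0.66 against 0.00 for all genes, of which 50% lay above 0. None of the 11 passed the threshold, and 5 had an unadjusted p under 0.05, as did 3.46% of all tested genes. Npas4, which is specific to neuronal activity, had 10.7 and 7.38 CPM in control, 9.95 and 2.03 in BCAS, 48.5 and 7.50 in TBI, and 13.0 and 52.4 in BCAS+TBI. Within each library set both libraries with TBI were above both without. Its log2 value was 1.68 (SE 0.47, adjusted p = 0.512), from 62 UMIs in all. Nr4a3, a nuclear receptor gene, had 32.2 and 6.33, 6.63 and 12.2, 33.2 and 20.6, and 31.9 and 39.3 CPM in the same order, with a log2 value of 1.33 (SE 0.38, adjusted p = 0.541). Btg2 (0.78), Nr4a1 (0.66) and Junb (0.61) were the other 3, each with an adjusted p of 0.999. Egr3 had 0.00 and Jund -0.21. The median was 0.50 within set 1 and 0.71 within set 2.

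The same list was tested in the other nuclei, where more of its genes passed the filter on low counts, so the medians cover different genes. Of 18 tested genes, 15 lay above 0 in nuclei with Rorb, with a median of 0.29, and 15 of 15 in layer 6 nuclei, with a median of 0.37, and none passed there either. Nr4a3 had -0.27 (SE 0.25) and 0.05 (SE 0.28) in those nuclei, and Npas4 0.29 (SE 0.26) and 0.36 (SE 0.28). Egr3, at 0.00 in the members, had 0.19 (SE 0.20) and 0.80 (SE 0.28). The difference between kinds of nuclei was not tested for the list. With BCAS averaged over TBI the list's median in the members was 0.12. For TBI alone against control the median was 0.67 in the members and 0.27 in layer 6 nuclei. In nuclei with Rorb it was -0.21, with 5 of 18 genes above 0. For BCAS alone against control the medians were 0.00, -0.39 and -0.46, in the same order. The interaction in nuclei with Rorb had a median of 0.83. The averaged value in nuclei with Rorb thus does not show a rise with TBI alone.

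**Figure D4:**
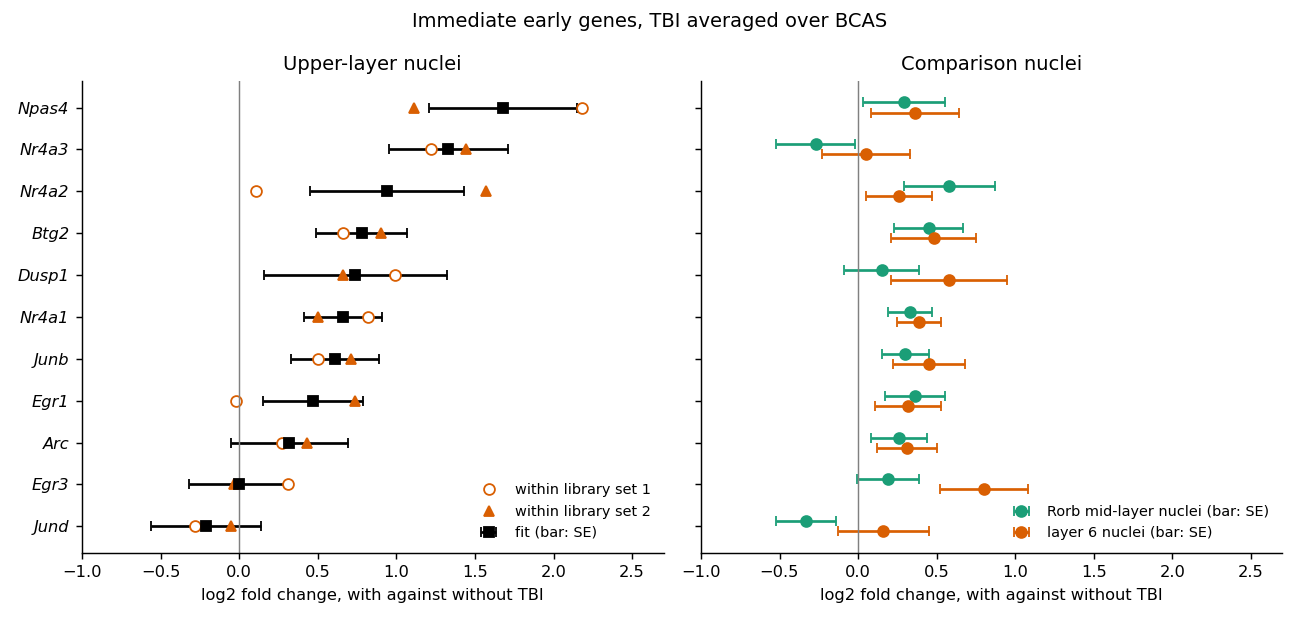
Log2 fold change with against without TBI for the 11 immediate early genes tested in the upper-layer nuclei, from the fit with its SE and within each library set (left), and in nuclei with Rorb and layer 6 nuclei with SE (right). Npas4 (1.68) and Nr4a3 (1.33) have the highest values on the left, and on the right they lie between -0.27 and 0.36.

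None of the 14 lists had a gene past the threshold in any of the 7 comparisons. Of 13 tested late activity genes, 9 lay above 0 (median 0.24), among them the prohormone convertase gene Pcsk1 at 0.75 (SE 0.29, adjusted p = 0.999). Of 8 tested axon injury and regrowth genes, 8 lay above 0, between 0.06 and 0.19. Their median was 0.10, against 0.00 for all genes. Cap2 (0.06, SE 0.14), Basp1 (0.10, SE 0.16), Stmn2 (0.07, SE 0.18) and Klf7 (0.14, SE 0.21) had values below their SE. For TBI alone against control, 5 of the 8 lay above 0, and the values ran from -0.22 to 0.47. In nuclei with Rorb and in layer 6 nuclei, 6 of 10 tested genes each lay above 0 with TBI averaged over BCAS. In the members, the 13 tested upper-layer identity genes had a median of -0.09 in that comparison, with Unc5d at -0.10 (SE 0.11) and Rasgrf2 at -0.17 (SE 0.14). The medians were -0.01 for 33 glutamate receptor and postsynaptic genes, -0.02 for 15 GABA receptor genes, 0.00 for 42 ion channel genes, -0.03 for 25 genes of presynaptic release and -0.03 for 41 genes of axon guidance and adhesion. In the last list the axon guidance gene Ntng1 had 0.88 (SE 0.19, adjusted p = 0.119), with 95 of its 152 UMIs in TBI 1 in a single nucleus, and Epha6 had -0.57 (SE 0.18, adjusted p = 0.908). At an unadjusted p under 0.05 that list had 3 genes higher and 4 lower. The 11 tested long noncoding and nuclear-retained RNAs had a median of 0.09 and ran from -1.31 (Sox2ot, SE 0.40, adjusted p = 0.734) to 1.19 (Rmst, SE 0.29, adjusted p = 0.248), with 2 higher and 1 lower at an unadjusted p under 0.05. The stress lists had medians of 0.06 (18 hypoxia and glycolysis genes), -0.02 (21 of oxidative phosphorylation), 0.04 (20 heat shock and unfolded protein genes) and 0.10 (9 glucocorticoid response genes).

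BCAS averaged over TBI had 1 gene past the threshold (0.0109%), which fell, and 289 with an unadjusted p under 0.05 (3.14%). This was Fggy, a carbohydrate kinase gene on chromosome 4 (95557507 to 95926939, plus strand). Its CPM was 96.6 and 73.8 after control surgery, 53.1 and 15.2 after BCAS, 71.4 and 98.5 after TBI and 4.99 and 45.9 after both. All 4 libraries with BCAS lay below all 4 without, as arms of 2.20% of the tested genes did in either direction, and the lowest were BCAS 2 and BCAS+TBI 1. The log2 fold change was -2.24 (SE 0.34, edgeR adjusted p = 0.00285), with -0.74 within set 1 and -3.13 within set 2. It was also the one call DESeq2 made (adjusted p = 0.0492), and it was lost without control 2 or BCAS+TBI 1.

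The same libraries were low in Fggy in all kinds of nuclei. BCAS 2 had 8.35, 8.02 and 10.5 CPM in nuclei with Rorb, layer 6 nuclei and all other nuclei, and BCAS+TBI 1 had 7.11, 3.37 and 7.04. The other 6 libraries had 51.2 to 72.8 in all other nuclei, and BCAS 1 (58.2) and BCAS+TBI 2 (51.3) lay among the libraries without BCAS. The log2 fold change was -1.54 (SE 0.33, adjusted p = 0.402) in nuclei with Rorb and -1.71 (SE 0.48, adjusted p = 1.000) in layer 6 nuclei, and the differences of the members from these were -0.32 (SE 0.34) and -0.29 (SE 0.39), both with an adjusted p of 1.00.

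Of the genes that did not pass with BCAS, Pard3b, a cell polarity gene, had -1.68 (SE 0.34, adjusted p = 0.116), with 45 of its 71 UMIs in control 2 in a single nucleus. Rorb had -1.20 (SE 0.31, adjusted p = 0.768). The endothelial Cldn5 had 0 and 1 UMIs in BCAS, 0 and 0 in BCAS+TBI, 1 and 21 in control, and 8 and 3 in TBI. The pericyte gene Rgs5 had 0, 2, 1 and 0 UMIs with BCAS, and 17 of 25 UMIs in control 2 and 17 of 20 in TBI 1 lay in single nuclei. These are the libraries with the highest vascular marker sums given above, and their part in the values was not tested. The 18 tested genes of hypoxia and glycolysis had a median of -0.07 with BCAS, with 6 above 0 and 12 below, and the 21 of oxidative phosphorylation had 0.03.

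TBI alone against control and BCAS alone against control had no gene past the threshold (0% each) by edgeR and none by DESeq2, with 286 (3.11%) and 352 (3.83%) genes at an unadjusted p under 0.05. These 2 comparisons share the control libraries. With TBI the nearest were Dach1 at 1.41, the glypican gene Gpc5 at -1.71, the noncoding RNA Rmst at 2.03 and Egfem1 at -0.92, each with an adjusted p of 0.111. Fam19a2, which encodes a secreted chemokine-like protein, had 478 and 599 CPM in control, 1068 and 971 in BCAS, 852 and 1003 in TBI, and 896 and 544 in BCAS+TBI. Both single surgeries lay above control, with log2 values of 0.79 (SE 0.19, adjusted p = 0.265) for TBI and 0.96 (SE 0.19, adjusted p = 0.174) for BCAS. No overlap between arms of 2 libraries is common here, at 25.6% and 27.0% of tested genes.

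Both surgeries together against control had 5 genes past the threshold (0.0543%) and 263 with an unadjusted p under 0.05 (2.86%). Nxph1 (-3.01, SE 0.53, edgeR adjusted p = 0.0363), Fggy (-2.75, SE 0.54, adjusted p = 0.0494), Gm26848 and Tmem181c-ps fell, and Lsm4 rose (adjusted p = 0.0494). Lsm4 had 35 UMIs in BCAS+TBI and 1 in control, a ratio of 34.4 per UMI captured (exact 95% interval 5.78 to 1397, counting error only). Gm26848 falls outside the naming rule and was chosen after its values were seen. Every one of the 5 lost its call without control 2 and without BCAS+TBI 1, and all but Nxph1 also without control 1.

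Tmem181c-ps, a pseudogene on chromosome 17 (6613753 to 6639790, minus strand), had a log2 fold change of -3.84 (SE 0.77, edgeR adjusted p = 0.0494). It had 53.7 and 68.5 CPM in control, 3.32 and 33.5 in BCAS, 35.7 and 2.81 in TBI, and 4.99 and 0 in BCAS+TBI. The pseudogene has close relatives, and how reads were shared among them is not known. In all other nuclei it was at 28.3 CPM or more in control 1, control 2, BCAS 2 and TBI 1 and at 1.72 or less in the other 4 libraries, so that 1 library of BCAS and 1 of TBI lay with the controls. Gm26848, a long noncoding RNA nearby on chromosome 17 (6314199 to 6493180, plus strand), had -1.16 (SE 0.23, adjusted p = 0.0494), with 880 and 426 CPM in control and 171 and 452 in BCAS+TBI.

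**Figure D5:**
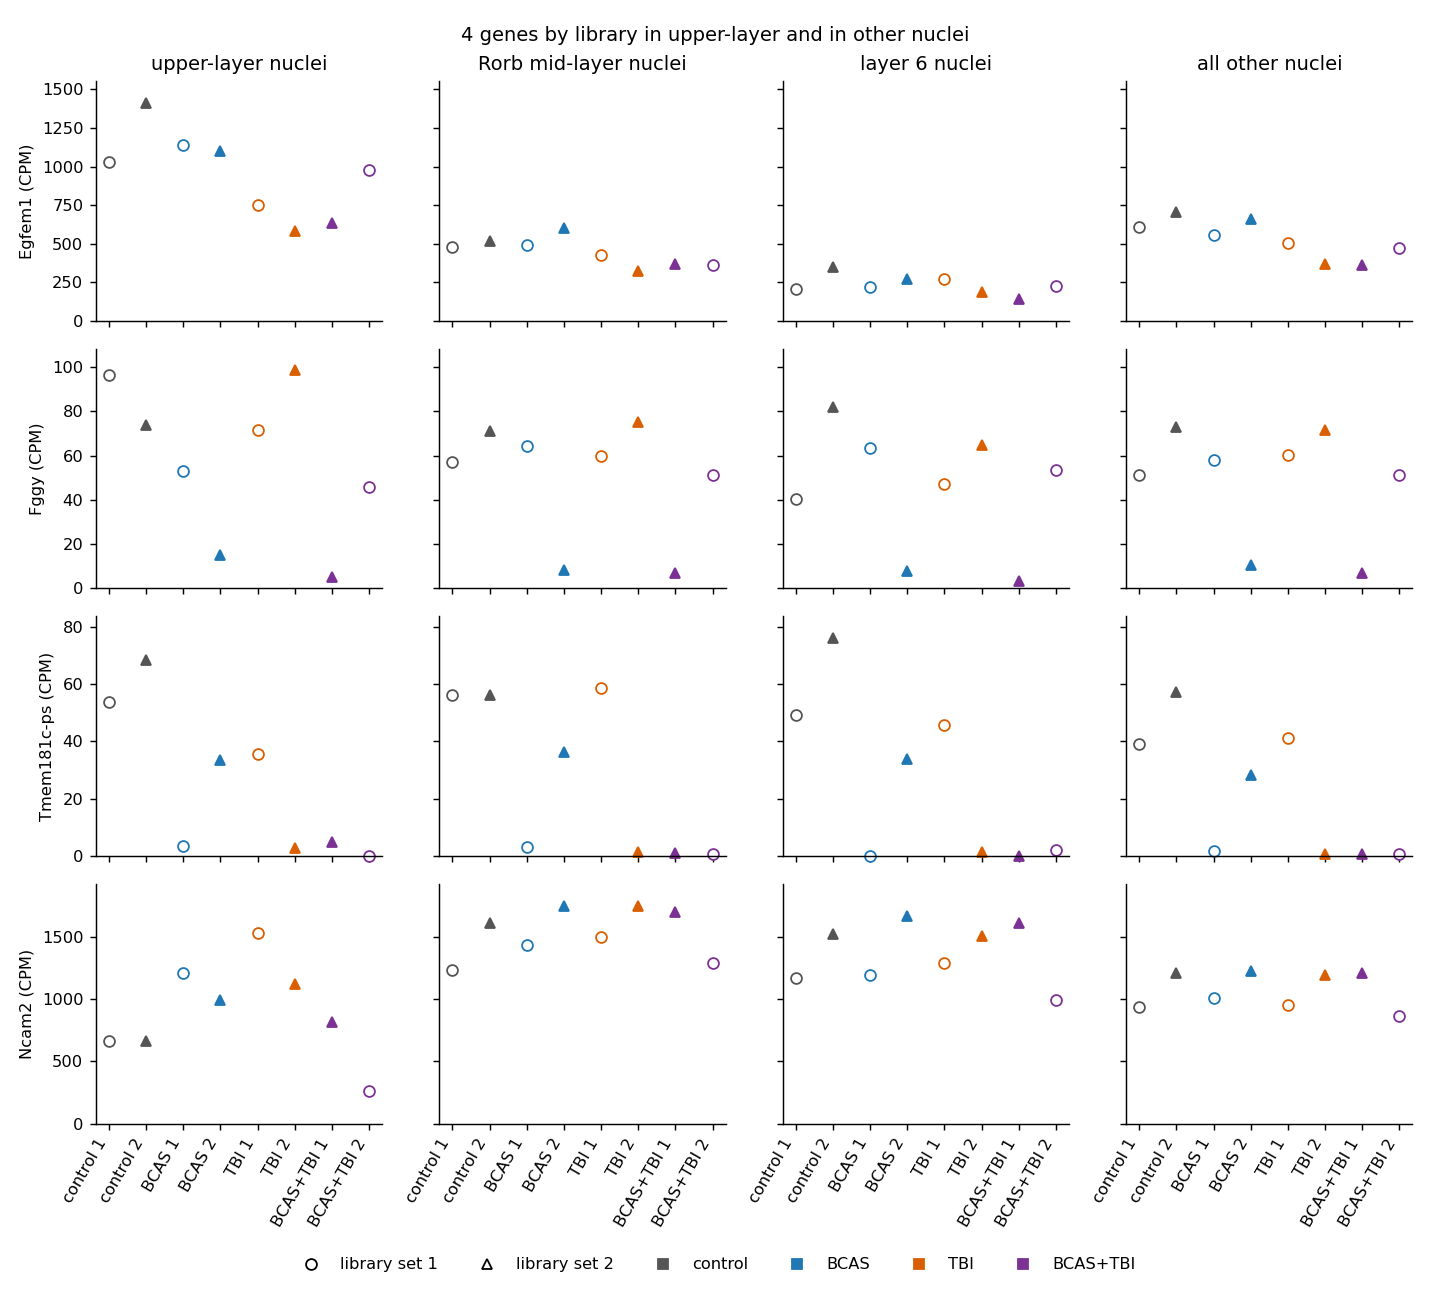
CPM of 4 genes in each library, in upper-layer nuclei, nuclei with Rorb, layer 6 nuclei and all other kept nuclei. Circles are library set 1 and triangles set 2, coloured by group. Fggy and Tmem181c-ps repeat the same high and low libraries in every kind of nucleus, Egfem1 is highest in the upper-layer nuclei, and the spread of Ncam2 is widest there.

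Both surgeries against TBI alone had 2 genes past the threshold (0.0217%), both lower, and 278 with an unadjusted p under 0.05 (3.02%). Fggy had -2.87 (SE 0.51, edgeR adjusted p = 0.0380), which was lost without control 2, TBI 2 or BCAS+TBI 1. Dach1, a transcriptional repressor gene on chromosome 14 (97786853 to 98169765, minus strand), had -1.60 (SE 0.30, adjusted p = 0.0380). Its CPM was 69.8 and 40.1 after control surgery, 49.7 and 30.5 after BCAS, 240 and 87.2 after TBI and 34.9 and 59.0 after both, so TBI alone was highest. Arms of 25.9% of the tested genes did not overlap in this comparison. Only 70 of 467 members had a Dach1 UMI, and without the richest nucleus of each library the adjusted p was 0.358. The call was also lost without control 2, TBI 1, BCAS+TBI 1 or BCAS+TBI 2. Nuclei with Rorb had -0.18 (SE 0.21) in the same comparison.

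The interaction, which asks whether the change with TBI differed between mice with and without BCAS, had 3 genes past the threshold (0.0326%) and 342 with an unadjusted p under 0.05 (3.72%). Ncam2, a neural cell adhesion gene on chromosome 16 (81200697 to 81626828, plus strand), had -1.94 (SE 0.36, edgeR adjusted p = 0.0307). It had 660 and 663 CPM in control, 1211 and 995 in BCAS, 1528 and 1118 in TBI, and 815 and 262 in BCAS+TBI. Both libraries of each single surgery lay above both controls, while of the libraries with both surgeries 1 lay above the controls and 1 below. The value was -3.41 within set 1 and -1.04 within set 2. It stayed past the threshold without the richest nucleus of each library (adjusted p = 0.0161) and lost it without control 1 or control 2.

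Ndst4, which modifies heparan sulphate (chromosome 3, 125404076 to 125728899, plus strand), had -2.42 (SE 0.43, edgeR adjusted p = 0.0204). Its CPM was 91.3 and 49.6 after control surgery, 328 and 85.4 after BCAS, 253 and 91.0 after TBI and 55.9 and 52.4 after both. In BCAS+TBI 2 all 8 UMIs came from 1 nucleus, and the call was lost without control 1, control 2 or BCAS 1. Gm47283 on chromosome Y (90784738 to 90816464, plus strand), which falls outside the naming rule and was chosen after its values were seen, had 2.16 (SE 0.38, adjusted p = 0.0204). Its CPM was 177 and 290 after control surgery, 133 and 125 after BCAS, 181 and 82.5 after TBI and 255 and 314 after both, and the interaction was 1.59 (SE 0.36) and 1.63 (SE 0.34) in the other 2 kinds of nuclei. It was lost without control 2 or TBI 2. Among the 41 tested genes of axon guidance and adhesion, 28 lay below 0 and 13 above, with a median of -0.28 against 0.00 for all genes, and 10 had an unadjusted p under 0.05 and a value below 0, but none passed.

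The changes were then compared directly between the members and the other kinds of nuclei, in a fit with cell kind by group and the library as a block. Of 11851 genes, 1 (0.00844%) differed from nuclei with Rorb in the change with TBI, 3 (0.0253%) in that with BCAS and 5 (0.0422%) in the interaction. Of 11123 genes, 12 (0.108%), 9 (0.0809%) and 3 (0.0270%) differed from layer 6 nuclei. At an unadjusted p under 0.05 the shares were, in the same order, 3.61%, 3.54% and 3.68% of genes against nuclei with Rorb and 3.92%, 3.53% and 3.19% against layer 6 nuclei. DESeq2 called none of these differences.

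Ncam2 differed from both. Its interaction differed by -1.76 from nuclei with Rorb (SE 0.31, edgeR adjusted p = 0.00187) and by -1.82 from layer 6 nuclei (SE 0.32, adjusted p = 5.57e-04). Nuclei with Rorb had 1235 to 1750 CPM in the 8 libraries and an interaction of -0.32 (SE 0.14). Both differences were lost without BCAS+TBI 2, and that from layer 6 nuclei also without BCAS 2. Nxph1 differed in its change with TBI by -2.57 from nuclei with Rorb (SE 0.37, adjusted p = 6.47e-06), and this was lost without control 2 or TBI 2.

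Against nuclei with Rorb, the change with BCAS was lower in the members for Il1rapl2 (-1.03, SE 0.21, edgeR adjusted p = 0.0188), Pard3b (-1.79, SE 0.36, adjusted p = 0.0188) and Dach1 (-1.21, SE 0.26, adjusted p = 0.0354). In the interaction it was lower for the muscarinic receptor gene Chrm2 (-3.57), 1700016P03Rik (-2.28) and Fam19a2 (-1.36) and higher for Gpc5 (1.96). Chrm2 had 0.73 in the members and 0.44 in nuclei with Rorb within set 1, and -3.64 and 0.70 within set 2. The other interaction genes kept the direction of their difference in both sets. 1700016P03Rik falls outside the naming rule and was chosen after its values were seen. Il1rapl2 is held for layer 4 by the marker lists and had a UMI in 9.89% of thinned members. The mid-layer marker sum of the members ran from 62.9 CPM in BCAS+TBI 1 to 546 in TBI 1, and its part in the Il1rapl2 value was not tested. Each of these 7 differences was lost without control 2 and without at least 2 other libraries in turn.

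Against layer 6 nuclei, the change with TBI was higher in the members for the neuregulin receptor gene Erbb4 (1.84, SE 0.27, edgeR adjusted p = 5.50e-06), Chn2, Olfm3 and Wls. It was lower for 8 genes, which were Fam19a1 (-1.06), Lrrtm4 (-0.58), Lingo2 (-0.67), Gpc5, Nxph1, Itga8, Sox2ot and Rtn4rl1. Some of these differences lay mainly in the layer 6 nuclei. Within sets 1 and 2 Rtn4rl1 had -0.24 and 0.12 in the members, and 2.98 and 1.44 in layer 6 nuclei. Lingo2 had -0.19 and -0.08 against 0.89 and 0.26. Within set 1 the members were above layer 6 nuclei for Gpc5 (0.87 against 0.16) and Nxph1 (-1.75 against -2.03). The other genes were below in both sets. Erbb4 passed without each of the 8 libraries. The other 11 were each lost without at least 3 libraries in turn. Erbb4 CPM in the members was 21.5 and 31.6 after control surgery, 26.5 and 65.1 after BCAS, 81.6 and 64.7 after TBI and 42.9 and 321 after both. In BCAS+TBI 2 a single nucleus held 47 of its 49 UMIs. Within set 1 the members had 2.71 and the layer 6 nuclei -0.84, and within set 2 they had 0.21 and -0.83.

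The change with BCAS differed from layer 6 nuclei most in vascular and blood genes. Rgs5 had -6.53, Cldn5 -6.63, Slco1a4 -4.92, Slco1c1 -4.51 and the haemoglobin gene Hbb-bs -3.41 (edgeR adjusted p 1.60e-06 to 0.00483). In layer 6 nuclei of BCAS+TBI 2, Hbb-bs stood at 3155 CPM and Rgs5 at 265, against at most 79.5 and 8.75 in the other 7 libraries. The summed endothelial markers of layer 6 nuclei reached 901 CPM in their highest library with a median of 21.7. Without BCAS+TBI 2 none of the 5 passed, nor without BCAS 2 or TBI 1. Hs6st3, another heparan sulphate gene, was higher (0.90, SE 0.15, adjusted p = 2.59e-04), with 1219 to 1461 CPM in the members without BCAS and 1393 to 1886 with it, and it was lost without BCAS 2.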

How the data were processed

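The deposited tables hold UMI counts per gene and nucleus for 8 libraries. Per the file headers, the authors counted UMIs with Cell Ranger 7.0.0. GRCm38 and mm10, and Seurat, are named in the submitters' processing notes. How nuclei were called, which annotation release was used and whether strand was counted are not given in the sources used here.

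The members, gene lists, comparison nuclei and library sets were chosen with earlier results of these data known. The library sets split the libraries at the largest gap of log total UMIs. Member counts were summed per library and tested in R 4.3.3 with edgeR 4.0.16 (quasi-likelihood test with terms for group and library set, TMM factors, filterByExpr at min.count 10). Mitochondrial genes and genes of the rule stayed in the library totals and were not tested. DESeq2 1.42.0 was an alternative. p-values measure the spread between libraries, which the labels call biological replicates. Replicates of a group differed beyond counting noise (chi-square per degree of freedom 3.47 to 5.54). In every group they lie in different library sets, so these chi-squares include the difference between the sets. The expression fit has a term for the library set, so its p-values rest on the spread left after that term. edgeR also draws on the spread of other genes when it estimates that of each gene.

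On simulated counts for TBI averaged over BCAS (8799 genes tested), 54% of 100 genes changed 2-fold and 86% of 100 changed 4-fold were recovered, with 6 false calls. The simulation gave every gene the same spread (coefficient of variation 0.1354) and held no single nuclei rich in a gene. Its rates therefore need not hold for the real counts. Named genes were up to 12 per direction past the threshold, the 8 with the smallest p where fewer than 5 passed, and up to 4 per list, leaving out predicted genes. A few genes named for their UMIs or marker role (Cldn5, Rgs5) were chosen after their values were seen. The planned comparison of members with and without Rorb was not made, since too few had it. Doublets were not removed from the members: 4 had over 3 times their library's median UMIs and 15 were in the top 6% of Scrublet scores (scanpy 1.11.5). Positions are from GENCODE release 21 for mouse on GRCm38. Figures were drawn with matplotlib 3.10.9. The result for 1 marker gene is not reported here.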

Additional observations from a re-analysis of the deposited data

Results flagged for a closer look

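Each value here is a log2 difference between groups that passed the test of the difference itself (edgeR quasi-likelihood test with Benjamini-Hochberg adjustment). DESeq2 called none of them. The change with TBI differed between libraries with and without BCAS in the upper-layer nuclei for Gm47283 (2.16), Ndst4 (-2.42) and Ncam2 (-1.94).

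Against nuclei with Rorb, the change with TBI differed for Nxph1 (-2.57). The change with BCAS differed for Il1rapl2 (-1.03), Pard3b (-1.79) and Dach1 (-1.21). The interaction differed for Ncam2 (-1.76), Chrm2 (-3.57), 1700016P03Rik (-2.28), Fam19a2 (-1.36) and Gpc5 (1.96).

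Against layer 6 nuclei, the change with TBI was higher in the upper-layer nuclei for Erbb4 (1.84), Chn2 (1.90), Olfm3 (1.60) and Wls (1.89). It was lower for Fam19a1 (-1.06), Gpc5 (-1.23), Nxph1 (-1.67), Lingo2 (-0.67), Itga8 (-1.20), Sox2ot (-1.96), Rtn4rl1 (-1.86) and Lrrtm4 (-0.58). The change with BCAS was higher for Hs6st3 (0.90) and Zfhx4 (1.40). It was lower for Rgs5 (-6.53), Slco1c1 (-4.51), Cldn5 (-6.63), Hbb-bs (-3.41), Slco1a4 (-4.92), Npas3 (-1.12) and Sdk1 (-1.06). The high Hbb-bs and Rgs5 values in layer 6 nuclei of BCAS+TBI 2, given above, enter these differences. Within sets 1 and 2 Npas3 had 0.18 and -0.02 in the upper-layer nuclei, and 0.82 and 1.29 in layer 6 nuclei. Sdk1 had -0.46 and -0.27 against 0.01 and 0.81, and Zfhx4 had 0.93 and 0.21 against -0.39 and -1.12. The interaction differed for Gpc5 (3.71), Ncam2 (-1.82) and Thsd7a (2.75). Within sets 1 and 2 Thsd7a had 0.00 and 0.32 in the upper-layer nuclei, and -0.33 and -3.49 in layer 6 nuclei.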

How the results depend on the processing

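The counts of genes past the threshold, 4 (TBI averaged over BCAS), 1 (BCAS averaged over TBI), 0 (TBI alone), 0 (BCAS alone), 5 (both surgeries against control), 2 (both against TBI) and 3 (interaction), depended on the fit. Without the library set term, and with a replicate block in its place, each count was 0. The replicate numbers do not pair the samples: replicate 1 minus replicate 2 correlated at 0.23 among control, BCAS and TBI, and at -0.25, -0.20 and -0.22 between these and BCAS+TBI. The numbers of genes tested differed between these fits, with 9201 in the main one. DESeq2 (9201 genes) and a minimum count of 30 (4468 genes) each gave 0 in all comparisons but BCAS averaged over TBI, which had 1. Thinning to 3000 UMIs gave 0 in each, but only 278 genes could be tested there. With no filter on low counts (23761 genes) the counts were, in the order above, 10, 8, 14, 14, 13, 9 and 12. The stricter rule for Otof and Cux2 (102 members, 3502 genes) gave 0, 0, 2, 0, 0, 0 and 1. Chosen after seeing the data, leaving out the richest nucleus for each gene and library (8226 genes) gave 2, 1, 2, 0, 0, 1 and 4. Leaving out top Scrublet scores gave 0 for BCAS+TBI against control and 5 against TBI, and the filter on free RNA gave 0 for BCAS+TBI against control. Leaving out each library gave 1 to 15, 0 to 22, 0 to 30, 0 to 13, 1 to 13, 0 to 30 and 0 to 25. Between 8235 and 11744 genes were tested with a library left out. RLE normalization and a minimum of 500 UMIs (9201 genes each) changed none of the 7 counts of the main fit.

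The 1, 3 and 5 differences from nuclei with Rorb (TBI, BCAS, interaction) were 0, 0 and 0 by DESeq2, 1, 0 and 4 without the library set term, and 2 to 20, 0 to 15 and 5 to 16 with each library left out, an alternative added after seeing the data. The 12, 9 and 3 from layer 6 nuclei were 0, 0 and 0 by DESeq2, 1, 6 and 3 without the term, and 3 to 37, 0 to 29 and 0 to 12. Without TBI 2, the TBI differences of Gpc5 (0.12) and Nxph1 (0.14) from layer 6 nuclei reversed. Over the libraries left out they ran from -1.65 to 0.12 and from -3.53 to 0.14.

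The share of members with TBI minus without reversed under the stricter rule (-0.0529) and without control 1 (-0.0513), TBI 2 (-0.0356) or BCAS+TBI 1 (-0.0898), over a range of -0.0898 to 0.329. With BCAS it reversed as a share of excitatory nuclei (0.0701) and without control 2 (0.0956), BCAS 1 (0.0695), TBI 2 (0.121) or BCAS+TBI 2 (0.167), over -0.251 to 0.167. Permuting the libraries within the sets, chosen after seeing the data, leaves these differences as they are and changes their p. Of 622 recomputed values of 48 single calls and differences, 317 kept direction and side of the threshold, 303 no longer passed and 2 reversed. The cause of these changes was not tested. The 19 to 35 members per library of set 1 limit the depth.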
